A study of Mus musculus with 30 samples.

Results

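Toll-like receptors (TLR) and the innate adaptors that act with them were examined in sorted mesenchymal stromal cells of the mouse intestine. The 10 genes were chosen by symbol as a list of named receptors and adaptors: *Tlr1*, *Tlr2*, *Tlr3*, *Tlr4*, *Tlr5*, *Tlr6*, *Cd14*, *Ly96*, *Myd88* and *Nod1*. They are 10 of the 32342 genes to which the deposited counts were assigned, and a gene is named below only for its own behavior. Bulk RNA-seq had been performed on 30 libraries, 3 for each of 10 populations sorted by flow cytometry from untreated C57BL6/Nrj mice aged 8 to 10 weeks, and the labels give the replicates of a population as 3 individual mice. The study also describes the sorted subsets as coming from 3 independent experiments, and whether replicate number marks an experiment is not stated. In both tissues, pericytes were sorted as PDGFRα-ESAM-1+PDPN- cells. Before these gates the sort removed dead cells and cells positive for lineage markers, CD31, BP3 or EpCAM or high for NCAM. This step is directed at leukocytes and endothelium among others, and some of their marker transcripts remained, as given below. From the small intestine (SI) came smooth muscle cells (SMC; PDGFRα-ESAM-1+PDPN+) and 3 ESAM-1- fibroblast (FB) populations: PDGFRα hi FB (PDGFRα hiCD34-), Fgfr2+ FB (intermediate PDGFRα, CD34-) and CD34+ FB (intermediate PDGFRα, CD34+). From the colon came 4 ESAM-1- populations: PDGFRα hi FB (PDPN+CD34-), Fgfr2+ FB (PDPN hiCD34+CD90-), CD81+ FB (intermediate PDPN, CD34+CD90-) and CD90+ FB (CD34+PDPN hiCD90+). The series has no colonic SMC library, so mural cells below are the 9 libraries of pericytes of both tissues and SI SMC, set against the 21 FB libraries.

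TLRs are membrane receptors for microbial molecules that act as homodimers or heterodimers, at the cell surface or in endosomes. All members of the family named here except TLR3 signal through the adaptor MYD88 to NF-κB and MAP kinases, while TLR3 uses another adaptor, TRIF. NOD1 is a cytosolic receptor for peptidoglycan fragments that reaches NF-κB through the kinase RIPK2.

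Libraries held 2245052 to 19096945 estimated counts (median 9601683). Levels are given as counts per 1000000 counts of a library (CPM) after TMM scaling, which corrects for differences in library composition, and as mean ± SD with n = 3 libraries unless stated. The sorting genes followed the gates: *Pdgfra* was at 544 to 6590 CPM in FB libraries and 9.14 to 42.8 CPM in mural libraries, and mean *Esam* was 106 CPM or more in mural populations and 0.718 CPM or less in FB populations. *Pdpn* separated SMC (mean 10.4 CPM) from pericytes (0.273 CPM in one tissue and 0.177 CPM in the other). In colon, *Thy1*, which encodes CD90, had a mean of 196 CPM in CD90+ FB and 99.5 CPM in CD81+ FB, so this gene separated these 2 populations less than the protein did in the gate. Fewer cells of a type and less RNA per cell cannot be told apart in bulk libraries.

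Differences were tested with edgeR, and a gene was called when its p, adjusted over all genes tested (Benjamini-Hochberg), was below 0.05 and its log2 fold change was above 1.5 in size. These p-values measure spread between samples, SE is the standard error of a log2 fold change, and a p that missed the threshold does not show that levels were equal. Across the 10 populations, 2 of the 10 members differed, *Tlr3* and *Tlr5*, against 25.7% of the 17555 genes tested. Between mural cells and FB, 4 of 10 were called (13.3% of genes tested), with *Tlr1* higher in mural cells (5.84% of genes) and *Tlr2*, *Tlr5* and *Cd14* lower (7.47%). The comparison averages log2 levels over populations, which is undefined when a population on each side has 0 counts in all its libraries. This held for no member but for 9.42% of the genes tested, which edgeR could therefore not call. The median log2 fold change of the 10 was -0.52, and that of all genes tested was -0.04. Members share ligands, dimers and partners, so these counts are not counts of independent events.

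**Figure D1:**
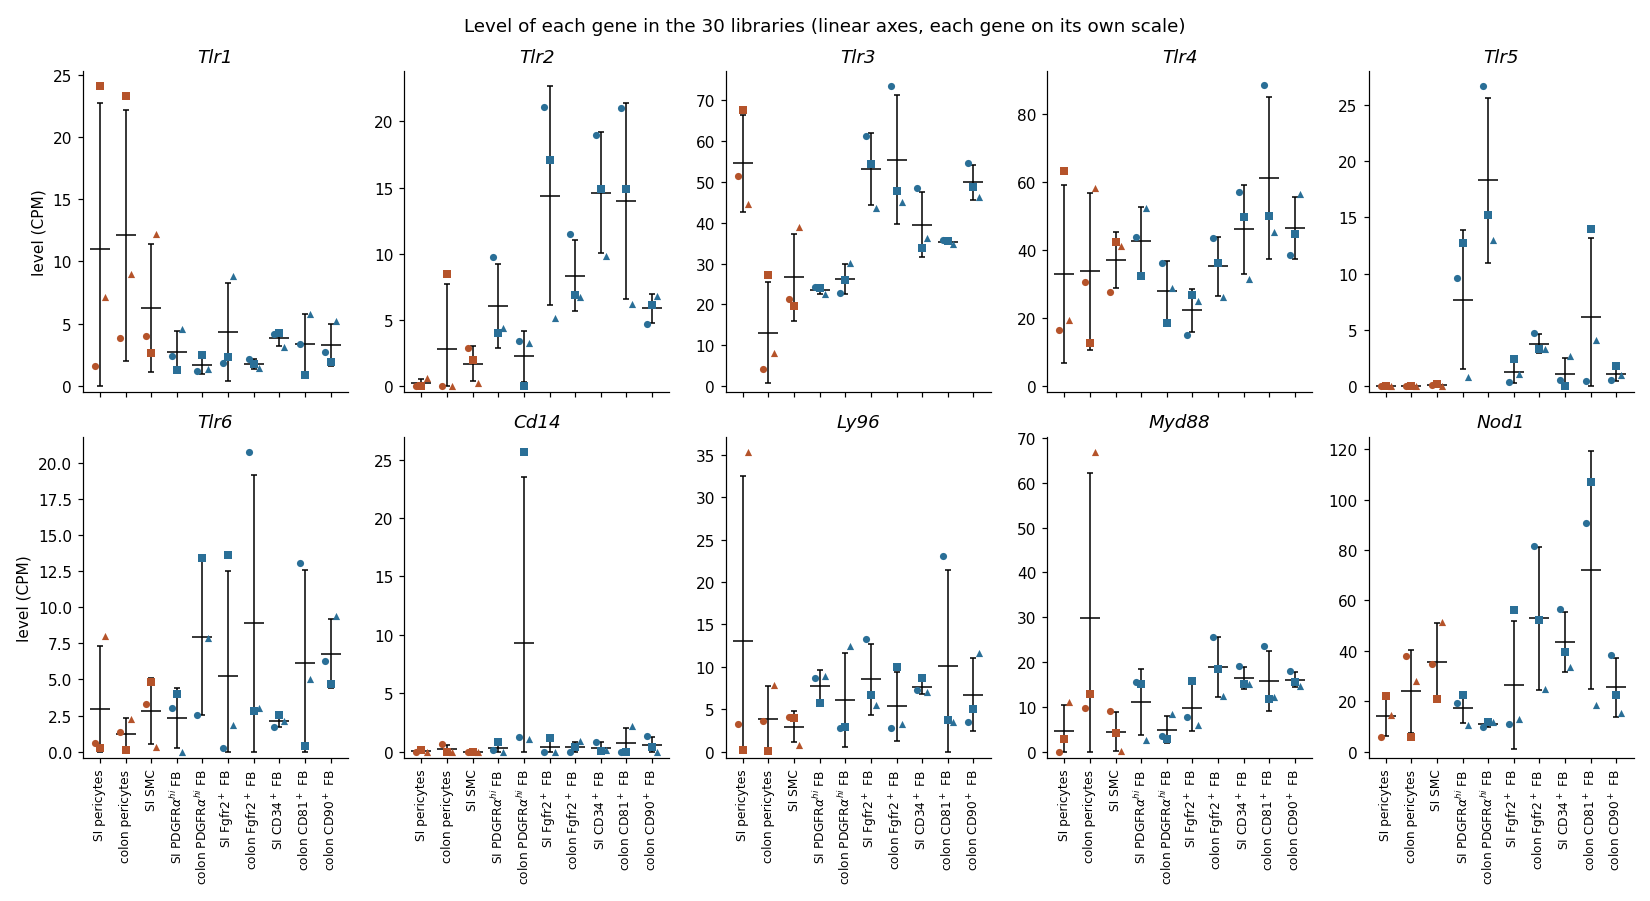
Level of each of the 10 genes in each of the 30 libraries, by population, in CPM. Every point is 1 library.

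*Tlr5* encodes the receptor for bacterial flagellin, and it had the largest mural to FB difference of the 10. In colonic PDGFRα hi FB the 3 libraries had 26.7, 15.2 and 13 CPM (18.3 ± 7.33), and in SI PDGFRα hi FB 9.6, 12.7 and 0.794 CPM (7.69 ± 6.17). In mural cells, all 6 pericyte libraries had 0 *Tlr5* counts and the SMC libraries had 1, 2 and 0 counts. Thus 20 of 21 FB libraries lay above the highest mural library (0.198 CPM), and the exception was 1 SI CD34+ FB library with 0 counts. The log2 fold change was -7.09 (SE 1.06, edgeR adjusted p = 1.54e-05), a fitted value whose size has no bound because pericytes had no counts. With 3 counts in all mural libraries against 1254 in FB, the FB rate was 141 times the mural rate, with a 95% exact interval of 48.1 to 684. Without replicate 2 of SMC, which leaves 1 mural count, it was 370 (66.2 to 14600). This interval, like every interval and floor below, covers counting error only.

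Within FB, mean *Tlr5* after the PDGFRα hi populations was 6.16 ± 7.04 CPM in colonic CD81+ FB, where single libraries ran from 0.403 to 14.0 CPM. Lower means followed in colonic Fgfr2+ FB (3.77 ± 0.823 CPM), SI Fgfr2+ FB (1.28 ± 1.03 CPM), colonic CD90+ FB (1.1 ± 0.657 CPM) and SI CD34+ FB (1.08 ± 1.41 CPM). Neighbors in this order overlapped, except for 2 pairs from the same subset: colonic above SI PDGFRα hi FB, and colonic above SI Fgfr2+ FB. The population test gave an edgeR adjusted p of 0.00031. With both tissues together, *Tlr5* was lower in Fgfr2+ FB than in PDGFRα hi FB by a log2 fold change of -2.43 (SE 0.68, edgeR adjusted p = 0.0436), the only call of the 10 in that comparison. There 4.4% of 15673 genes were called (2.21% higher and 2.19% lower in Fgfr2+ FB), and the median was 0.51 for members and 0.03 for all genes. This call was near the threshold: it was kept in only 2 of 12 fits that left out 1 library, without replicate 3 of SI PDGFRα hi FB (adjusted p = 0.0109) or replicate 2 of SI Fgfr2+ FB (0.0269). It was also lost when replicate number was added to the model as a block (-2.32, edgeR adjusted p = 0.0822), from length-scaled TPM counts, on protein-coding transcripts and with all 30 libraries in one model.

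The tissue difference of *Tlr5* within a subset was not called. SI against colon its log2 fold change was -1.24 (SE 0.91, edgeR adjusted p = 0.87) among PDGFRα hi libraries and -1.52 (SE 0.95, adjusted p = 0.441) among Fgfr2+ libraries, although colonic and SI values did not overlap in either subset. None of the 10 was called in these comparisons, where edgeR called 1.76% and 3.09% of all genes. An unadjusted p below 0.05 was found for 1 of 10 members in the first subset and 0 in the other, and DESeq2 called 0 in both. The interaction, the difference between the 2 tissue effects, called 0 of 10 members in edgeR, 0 at an unadjusted p below 0.05 and 0 by DESeq2, against 1.28% of all genes. For *Tlr5* the interaction was -0.28 (SE 1.26, edgeR adjusted p = 0.974).

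*Tlr2* encodes the receptor that pairs with TLR1 or TLR6 to bind bacterial lipopeptides. Its highest means were in SI CD34+ FB (19.0, 14.9 and 9.83 CPM; 14.6 ± 4.57), SI Fgfr2+ FB (21.1, 17.1 and 5.15 CPM; 14.4 ± 8.29) and colonic CD81+ FB (21, 14.9 and 6.19 CPM; 14.0 ± 7.42). These 3 populations overlapped fully, and replicate 3 was the lowest in each. Colonic Fgfr2+ FB (8.35 ± 2.7 CPM), SI PDGFRα hi FB (6.06 ± 3.19), colonic CD90+ FB (5.87 ± 1.11) and colonic PDGFRα hi FB (2.23 ± 1.93) had less. Among FB alone the only step above the spread was the last, where CD90+ values (4.66 to 6.84 CPM) lay above those of colonic PDGFRα hi FB (0 to 3.43 CPM). In mural cells *Tlr2* was at 2.87, 1.98 and 0.232 CPM in SMC, at 0, 0 and 0.606 CPM in SI pericytes, and at 0, 8.48 and 0 CPM in colonic pericytes. The log2 fold change between mural cells and FB was -2.93 (SE 0.81, edgeR adjusted p = 0.00892), and the FB to mural ratio of rates was 6.38 (95% exact interval 5.32 to 7.71). The groups overlapped: 9 of 21 FB libraries lay above the highest mural library, while 4 of 9 mural libraries had no count.

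That highest mural library, replicate 2 of colonic pericytes, held 69 of the 123 mural *Tlr2* counts. Its summed level of 14 macrophage and other myeloid marker genes was 186 CPM, against 106 and 43.3 CPM in the other colonic pericyte libraries. Only 9 of the 14 genes were detected in it, and *Lyz2* (91.0 CPM), *Csf1r* (48.4 CPM) and *Cd68* (23.6 CPM) made up most of the sum, while *Tyrobp*, *Aif1* and *C1qa* had no counts. SI pericytes had 303, 105 and 114 CPM of the same list, and the other 8 populations had means of 28.8 to 59.0 CPM. On coding transcripts alone the sums were 182 CPM in this library, 60.4 and 16.1 CPM in its partners, and 199, 102 and 70.7 CPM in SI pericytes. The same library had 33.3 CPM of a list of 8 epithelial genes (*Vil1* 16.8 CPM), against 1.56 and 5.19 CPM in its partners. Lineage-positive and EpCAM-positive cells were sorted out, and whether remaining myeloid or epithelial cells contributed the *Tlr2* counts was not tested. Without this library the ratio of rates was 13.1 (95% exact interval 9.98 to 17.4), and the log2 fold change was -5.59 (edgeR adjusted p = 2.97e-05), a fitted value with no bound because the remaining colonic pericytes had no counts. Without replicate 3 of SI pericytes, which leaves that population with no counts, it was -4.37 (edgeR adjusted p = 0.00394), likewise with no bound. *Tlr2* and *Tlr5* were the members called between mural cells and FB in every one of 30 fits leaving out 1 library.

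*Tlr3* encodes the endosomal receptor for double-stranded RNA, and it was found in every library. Colonic Fgfr2+ FB had 73.6, 47.8 and 45.0 CPM (55.5 ± 15.8), SI pericytes 51.4, 67.7 and 44.6 CPM (54.6 ± 11.9), SI Fgfr2+ FB 61.3, 54.4 and 43.7 CPM (53.1 ± 8.84) and colonic CD90+ FB 54.6, 48.7 and 46.3 CPM (49.9 ± 4.28). The next mean, of SI CD34+ FB (39.5 ± 7.93 CPM), was lower by more than the spread, but neighbors in the order overlapped at this step as at every other. Colonic CD81+ FB (35.3 ± 0.567 CPM), SMC (26.6 ± 10.7), colonic PDGFRα hi FB (26.3 ± 3.65), SI PDGFRα hi FB (23.5 ± 0.973) and colonic pericytes (4.06, 27.1 and 8.19 CPM; 13.1 ± 12.3) followed. The last step was as large, but within the spread of colonic pericytes. The population test gave an edgeR adjusted p of 0.0315 and a log2 spread from highest to lowest population of 2.08, which was 1.66 without replicate 1 of colonic pericytes and 3.17 without replicate 2. The call was lost when replicate 3 of colonic pericytes (adjusted p = 0.0768), replicate 1 of colonic CD90+ FB (0.0507) or replicate 1 of colonic Fgfr2+ FB (0.0508) was left out. It was also lost with no filter on low counts (0.097), length-scaled TPM counts (0.606), the replicate block (0.05) and protein-coding transcripts only (0.0556), a setting chosen after seeing the data.

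The *Tlr3* difference between the FB subsets was steady from library to library but small in fold. All 6 Fgfr2+ FB libraries (43.7 to 73.6 CPM) lay above all 6 PDGFRα hi FB libraries (22.5 to 30.2 CPM), with a log2 fold change of 1.12 (SE 0.27, edgeR adjusted p = 0.017) that was below the fold threshold. From counts rebuilt from length-scaled TPM, however, it was -0.26 (edgeR adjusted p = 0.812) and had the opposite sign, and the cause was not tested. Between the pericytes of the 2 tissues, *Tlr3* was higher in SI without overlap (44.6 to 67.7 against 4.06 to 27.1 CPM; log2 fold change 2.09, SE 1.02, edgeR adjusted p = 0.641). In that comparison edgeR called 0% of 13368 genes and 0 of the 7 members that could be tested, with 0 at an unadjusted p below 0.05 and 0 by DESeq2. Over all genes DESeq2 called 354 there, and an edgeR model of all 30 libraries called 998, with *Tlr3* among them (2.08, adjusted p = 0.0179). *Tlr2*, *Tlr5* and *Cd14* had too few counts to be tested there. A list of 6 smooth muscle genes also differed between these pericytes without overlap, at 9610 to 11100 CPM in colon and 2860 to 4300 CPM in SI. Endothelial genes ran the other way (95.8 to 108 CPM in colon, 182 to 335 CPM in SI). Whether either list is linked to *Tlr3* was not tested.

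*Tlr4* encodes the lipopolysaccharide receptor, and it was the most even of the 10. All 30 libraries had 12.5 to 88.5 CPM. Population means ran from 22.2 ± 6.27 CPM in SI Fgfr2+ FB to 61.2 ± 23.8 CPM in colonic CD81+ FB (88.5, 49.8 and 45.2 CPM), and no neighbors in the order differed by more than their spread. Mural cells and FB overlapped widely (log2 fold change -0.14, SE 0.26, edgeR adjusted p = 0.814). *Tlr4* was thus found in all mural libraries, unlike *Tlr2* and *Tlr5*.

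*Tlr1* encodes a partner of TLR2, and it was the only member higher in mural cells (log2 fold change 1.75, SE 0.44, edgeR adjusted p = 0.00416). Colonic pericytes had 3.85, 23.3 and 9.0 CPM (12.1 ± 10.1), SI pericytes 1.64, 24.1 and 7.15 CPM (11.0 ± 11.7) and SMC 4.05, 2.67 and 12.2 CPM (6.29 ± 5.13), and FB population means were 1.69 to 4.33 CPM. Mural values spread widely, and 4 of 9 mural libraries lay above the highest FB library (8.82 CPM). The 2 highest, replicate 2 of colonic and of SI pericytes, also had the highest sums of the 8 epithelial genes (33.3 and 37.2 CPM). Whether these sums are linked to *Tlr1* was not tested. Leaving out replicate 2 of colonic pericytes (1.42), replicate 2 of SI pericytes (1.3) or replicate 3 of SMC (1.44) brought the fold below the threshold. These counts describe the receptor's message poorly. Only 16 of 1450 counts (1.11%) were assigned to coding transcripts, and the rest to 1 short processed transcript of which 6.43% of 31-base positions are a dinucleotide repeat. Of its 368 distinct 31-base words, 59 occur in other genes, 1226 genes in all. Coding *Tlr1* was therefore close to absent at this depth, and the mural increase is one of the short transcript or of reads shared with it.

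*Tlr6* encodes the other partner of TLR2, and its level spread more widely within some populations than the population means did. Libraries of colonic Fgfr2+ FB had 20.8, 2.84 and 3.04 CPM and those of SI Fgfr2+ FB had 0.276, 13.6 and 1.84 CPM, and population means were 1.25 to 8.89 CPM. Mural cells against FB gave -1.17 (SE 0.74, edgeR adjusted p = 0.287). Coding *Tlr1* and *Tlr6* share 603 31-base words, 16.3% of those of *Tlr6*, so part of the reads could have been assigned to either gene.

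The co-receptors of TLR4 differed in how far they could be measured. *Cd14*, which encodes the protein that hands lipopolysaccharide to TLR4, had 333 counts over the 30 libraries, and 196 of them were in replicate 2 of colonic PDGFRα hi FB. That library had 25.7 CPM, the other libraries of its population 1.22 and 1.09 CPM, and 14 of the 30 libraries had none. The same library had 55.9 CPM of the myeloid marker list, against 22.9 and 25.5 CPM in the others of its population, and whether its *Cd14* came from myeloid cells that escaped the lineage gate was not tested. Mural cells had 7 *Cd14* counts and FB 326 (ratio of rates 15.7, 95% exact interval 7.53 to 39.3), with a log2 fold change of -3.74 (SE 1.33, edgeR adjusted p = 0.0419) that has no bound, since SMC had 0 counts. Without the 1 library with most counts the ratio was 6.46 (3.05 to 16.4), and without replicate 1 of colonic pericytes, which held 6 of the 7 mural counts, it was 96.8 (17.2 to 3830). The call was kept in 16 of 30 fits leaving out 1 library, and without replicate 2 of colonic PDGFRα hi FB it was -3.32 (edgeR adjusted p = 0.0703). With the replicate block it was -3.82 (edgeR adjusted p = 0.0524) and not called. It was also lost (edgeR adjusted p 0.0567 to 0.0726) without any 1 of the SMC libraries, replicates 2 and 3 of colonic pericytes, replicates 1 and 3 of SI pericytes, replicate 1 of colonic CD90+ FB, replicate 3 of colonic Fgfr2+ FB, replicate 1 of SI CD34+ FB or replicate 2 of SI PDGFRα hi FB. Without replicate 3 of colonic CD81+ FB or replicate 2 of SI Fgfr2+ FB that FB population had 0 counts, as SMC had, and the test could not be formed.

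*Ly96* encodes MD-2, the TLR4 subunit that binds lipopolysaccharide. It was found in all 30 libraries at population means of 2.94 to 13 CPM, and the highest mean, in SI pericytes, rested on 1 library (3.28, 0.243 and 35.4 CPM). Replicate 2 of colonic pericytes had only 1 *Ly96* count and replicate 2 of SI pericytes only 2. Mural cells and FB overlapped (log2 fold change -0.46, SE 0.58, edgeR adjusted p = 0.667). *Tlr4* and *Ly96* were thus present in every population while *Cd14* was near the limit of detection in most.

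*Myd88* encodes the adaptor that the TLRs named here other than TLR3 use, and its means were 4.48 to 29.9 CPM. The highest mean, in colonic pericytes, again rested on 1 library (9.68, 12.9 and 67.0 CPM). The steadiest populations were SI CD34+ FB (16.4 ± 2.47 CPM) and colonic CD90+ FB (16.1 ± 1.72 CPM), and the lowest were colonic PDGFRα hi FB (4.91 CPM), SI pericytes (4.65 CPM) and SMC (4.48 CPM). The difference between mural cells and FB was -0.52 (SE 0.52, edgeR adjusted p = 0.553), and no comparison called *Myd88*.

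*Nod1* was found in all libraries. Colonic CD81+ FB had 90.6, 107 and 18.3 CPM (71.9 ± 47.2), colonic Fgfr2+ FB 81.7, 52.1 and 25.0 CPM (52.9 ± 28.3) and SI CD34+ FB 56.6, 39.6 and 33.7 CPM (43.3 ± 11.9). Colonic PDGFRα hi FB were lowest and steady at 9.67, 11.9 and 11.7 CPM (11.1 ± 1.24). Replicate 3 of CD81+ FB lay far below its 2 partners and within the range of the other colonic FB. Against the other colonic FB, *Nod1* was higher in CD81+ FB (log2 fold change 1.56, SE 0.45, edgeR adjusted p = 0.0451), the only member called of 10, where 5.35% of 16099 genes were called. It was called in 3 of 12 fits leaving out 1 library: without replicate 3 of CD81+ FB (2.00, adjusted p = 0.00525), replicate 1 of CD90+ FB (1.70, 0.0428) or replicate 1 of Fgfr2+ FB (1.71, 0.0361). With the replicate block it was 1.38 (edgeR adjusted p = 0.0683) and not called, nor was it on protein-coding transcripts or with all 30 libraries in one model. Fgfr2+ FB had more *Nod1* than PDGFRα hi FB by 1.44 (SE 0.45), which was not called (edgeR adjusted p = 0.0757).

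**Figure D2:**
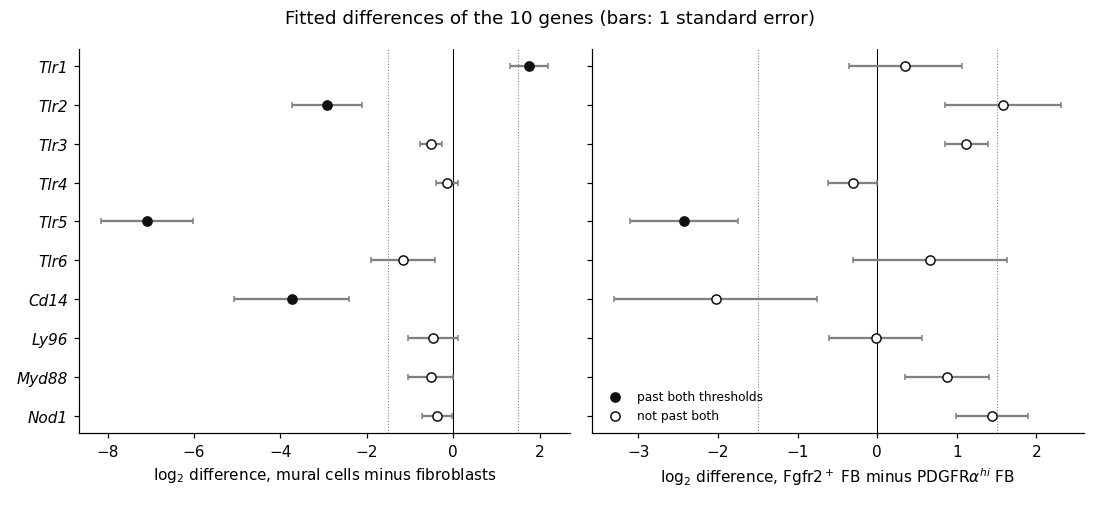
Log2 fold change of each of the 10 genes for mural cells minus FB (left) and Fgfr2+ minus PDGFRα hi FB (right), with bars of 1 standard error. On the left, the bars of *Tlr5* and *Cd14* do not give the precision of folds that have no bound. Filled points were called.

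The remaining comparisons called none of the 10. For SI pericytes against SMC, edgeR called 2.83% of 13767 genes and 0 of 7 members tested, with 0 at an unadjusted p below 0.05 and 0 by DESeq2. For SI CD34+ FB against other SI FB, edgeR called 4.52% of 15630 genes and 0 of 10 members, with 0 at an unadjusted p below 0.05 and 0 by DESeq2. For colonic CD90+ FB against other colonic FB, edgeR called 0.267% of genes and 0 of 10 members, with 1 at an unadjusted p below 0.05 and 1 by DESeq2. That member was *Tlr5*, lower in CD90+ FB (-2.79, SE 0.92, edgeR adjusted p = 0.421; DESeq2 adjusted p = 0.0218).

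Levels of different genes were compared only per kb of effective transcript length, as means over the 30 libraries. On this scale *Tlr4* (21.5 CPM per kb), *Tlr3* (21.4), *Ly96* (16.6) and *Nod1* (16.4) were highest, *Myd88* was at 7.57, and *Tlr2* (2.5), *Tlr6* (1.8), *Tlr5* (1.59) and *Cd14* (0.902) were lowest. The length of a gene is a mean over its transcripts weighted by TPM, so short transcripts lower it and raise the value per kb. For *Tlr4* it was 1790 bases, although 66.7% of its counts were on a transcript of 3880 bases. *Tlr3* and *Nod1* also had counts on short transcripts, so the order among the highest genes is not settled. This order is of means over all populations and turns in some: in colonic PDGFRα hi FB, *Tlr5* (7.36) was above *Nod1* (5.64) and *Myd88* (2.82). There *Cd14* was at 6.81 CPM per kb, but this mean, like that over all libraries, rested mostly on 1 library (25.7 CPM). The median of *Cd14* over the 30 libraries was 0.0969 CPM. *Tlr1* (22.5) does not compare, since its length is that of the short noncoding transcript.

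For each member the genes with the nearest pattern over the 30 libraries were listed by Pearson correlation of log2 levels among 9757 genes with a mean of at least 10 CPM. This is a description: the libraries come from 10 populations, so genes that mark the same population correlate without acting together. *Tlr5* was nearest to *Rbp4* (r = 0.81, n = 30), *Pdgfra* (0.79), whose protein was used in sorting, and *Sertad4* (0.78). *Tlr2* was nearest to *Npc2* (0.89), *Ang* (0.87) and *Plekha6* (0.84), *Tlr3* to *Arsb* (0.85), and *Myd88* to *Pcyt1a* (0.85) and *Zbtb16* (0.83). The nearest gene was *Slc16a1* for *Tlr4* (0.73), *Ciao2a* for *Ly96* (0.74), *Adi1* for *Nod1* (0.71), *Grik4* for *Tlr1* (0.79), *Gm16286* for *Tlr6* (0.69) and *Milr1* for *Cd14* (0.64).

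Around the members, 6 lists of pathway genes (other receptors, adaptors and proximal kinases, the TAK1 and IKK step with its transcription factors, negative regulators, cytosolic nucleic acid sensors and inducible products) held 81 genes. Between mural cells and FB, 12 of the 74 tested (16.2%, beside 13.3% of all genes) were called, 4 higher and 8 lower in mural cells, and their median log2 fold change was -0.08 beside -0.04 for all genes. *Il6*, *Csf3*, *Il1b*, *Tnf* and *Sigirr* could not be called there, because a population on each side had 0 counts. Higher were *Aim2* (2.80), *Cd180* (2.65), *Mavs* (1.77) and *Tlr12*. Pericytes also had higher sums of the myeloid list (means of 112 CPM in colon and 174 CPM in SI), with 5 to 9 of its 14 genes detected. *Cd68* made up much of them, at 82.8, 23.6 and 26.6 CPM in colonic and 218, 73.0 and 41.4 CPM in SI pericytes, while *Tyrobp* had 0 counts in all 6 libraries, and whether these sums are linked to the calls was not tested. Lower were *Ptgs2*, *Ccl7* (-4.24), *Lbp* (-2.08), *Icam1* (-2.08), *Vcam1* (-1.81), *Unc93b1* (-1.69), *Csf1* (-1.57) and *Hsp90b1* (-1.55), of which UNC93B1 and HSP90B1 help fold and carry TLRs. No fold is given for *Tlr12* and *Ptgs2*, since a population on 1 side had 0 counts. Of the 12, *Aim2*, *Lbp*, *Ccl7*, *Icam1*, *Vcam1* and *Ptgs2* were called under every alternative and in every leave-out fit. None of the 17 genes of the TAK1 and IKK step was called by edgeR (3 at an unadjusted p below 0.05, 0 by DESeq2). Between Fgfr2+ FB and PDGFRα hi FB 4 of 69 (5.8%, beside 4.4% of all genes) were called, all higher in Fgfr2+ FB (median 0.05 beside 0.03): *Vcam1* (3.26), *Ccl2* (2.64), *Tnfaip3* (1.82) and *Tlr12*, of which only *Vcam1* and *Tnfaip3* were called in every setting. In colonic CD81+ FB 5 of 70 (7.14%, beside 5.35%) were called (median 0.05 beside 0.09), with *Lbp* (2.65), *Nfkbia* (2.02), *Cxcl10* (1.87) and *Irak3* (1.57) higher and *Ptgs2* (-2.01) lower, and only *Lbp* was called in every setting. *Tlr12* is among the 70 but could not be called there or in colonic CD90+ FB, because a population on each side had 0 counts. Colonic CD81+ FB also had more of the endothelial marker list (mean 360 CPM, mostly *Tek*) than the other colonic FB (means of 73.4 to 83.4 CPM). Whether this is linked to the pathway calls in CD81+ FB or to that of *Nod1* was not tested.

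In the other comparisons, pathway genes were called as follows, with the share and median of the lists beside those of all genes. Across the 10 populations 28 of 74 differed (37.8% beside 25.7%), 13 of them among the 17 inducible products (76.5%), and 18 of the 28 were called in every setting. Of the inducible products, these were *Il6*, *Cxcl1*, *Cxcl5*, *Icam1*, *Vcam1*, *Saa3*, *Ptgs2* and *Csf1*. The lists were chosen with earlier results of these data known, so a share above that of all genes is not an independent result. SI against colon, 1 of 69 was called in PDGFRα hi FB (*Ptgs2*, -3.05; 1.45% beside 1.76%; median 0.16 beside 0) and 5 of 69 in Fgfr2+ FB (3 higher and 2 lower in SI; 7.25% beside 3.09%; median 0 beside 0.02). The 2 lower were *Nfkbiz* (-3.82) and *Il6*, which had 0 counts in all 3 SI libraries and was at least 10.4-fold lower when 3 counts per library are taken as the floor. SI pericytes against SMC gave 4 of 62, all higher in pericytes (6.45% beside 2.83%; median 1.07 beside -0.01), and SI CD34+ FB against other SI FB gave 3 of 69, all higher (4.35% beside 4.52%; median 0.11 beside -0.02). Of these calls for tissue, SI pericytes and SI CD34+ FB, only *Ptgs2* held in every setting. Leaving out 1 library gave 0 to 3 in SI pericytes and 0 to 5 in SI CD34+ FB. The other settings gave 2 to 14 in SI pericytes (12 by DESeq2), 3 to 5 in SI CD34+ FB and 1 to 7 for tissue in Fgfr2+ FB. SI pericytes also had more of the myeloid (174 against 39.7 CPM), endothelial (239 against 118 CPM) and lymphocyte (75.3 against 8.76 CPM) lists than SMC. Of these *Cd68* had a mean of 111 CPM and *Tek* of 106 CPM in SI pericytes, and *Cd79a* had 191 CPM in 1 library, and whether these levels are linked to the calls was not tested. For pericytes of the 2 tissues edgeR called 0 of 62 (9 at an unadjusted p below 0.05, 3 by DESeq2, median 0.6 beside 0.01). The other settings gave 0 to 8 there. For colonic CD90+ FB edgeR called 0 of 70 (3 at an unadjusted p below 0.05, 0 by DESeq2, median 0.09 beside -0.01).

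*Tlr2* and *Tlr5*, lower in mural cells in every fit, have promoter windows in the mouse assembly GRCm38.p6 (RefSeq) that can be read. The windows of 300 bases, written 5′ to 3′ on the strand of the gene, are chr3:83841559-83841858 (minus strand) and chr1:182954538-182954837 (plus strand), with matches in capitals.
Tlr2: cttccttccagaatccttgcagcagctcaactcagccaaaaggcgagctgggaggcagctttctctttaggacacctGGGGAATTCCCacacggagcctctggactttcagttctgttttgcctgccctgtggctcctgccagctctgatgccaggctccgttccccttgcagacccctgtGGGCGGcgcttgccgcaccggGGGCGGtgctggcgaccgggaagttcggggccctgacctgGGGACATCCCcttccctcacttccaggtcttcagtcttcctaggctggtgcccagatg
Tlr5: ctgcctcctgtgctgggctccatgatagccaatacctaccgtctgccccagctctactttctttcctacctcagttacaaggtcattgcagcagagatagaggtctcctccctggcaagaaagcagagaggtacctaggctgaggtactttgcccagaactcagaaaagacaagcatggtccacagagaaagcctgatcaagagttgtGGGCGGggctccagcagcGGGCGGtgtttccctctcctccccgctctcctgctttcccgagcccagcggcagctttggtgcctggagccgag
On either strand, the *Tlr2* window has 3 matches to the kappa B motif, 2 of them overlapping, and the *Tlr5* window has 0, and 8.46% of all 32851 windows have at least 1. Each has 2 GC boxes (GGGCGG), of which 35.7% of windows have at least 1, and neither has an AP-1 site (TGANTCA), of which 7.81% have at least 1. Windows were examined for 7 of the 10 members. None was examined for *Tlr4*, *Ly96* or *Cd14*, so whether these 3 genes have such matches was not tested. A match shows only that the letters are present, and binding was not measured.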

How the data were processed

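The authors trimmed reads with Trim Galore 0.4.0 (FastQC 0.11.2) and quantified transcripts with kallisto 0.42.5, and they deposited estimated counts and TPM for 98492 transcripts in each of 30 libraries. The transcript set they used is not stated, and 97116 transcripts were matched to 32342 genes of GENCODE M21, which held 97.8 to 99.2% of each library's counts. Deposited estimated counts were summed to genes by symbol and rounded. A gene was tested if 3 or more libraries of a fit held 6 or more of its counts, in R 4.3.3 with edgeR 4.0.16 (limma 3.58.1; TMM scaling, quasi-likelihood tests, prior count 2). Only the compared populations entered a fit, the population and mural tests used all 30 libraries, and no covariate was used. A call needed an adjusted p below 0.05 and a log2 fold change above 1.5 in size. With 3 libraries against 3, the smallest exact p is 0.1, so tests rest on edgeR's model.

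Library depth was 2245052 to 19096945 counts, so a gene with few counts in a deep library may have none in a shallow one. Alternatives were DESeq2 1.42.0, RLE size factors, no filter, a filter of at least 10 counts in every library of 1 population, counts from length-scaled deposited TPM, no fold threshold, a replicate block, all 30 libraries in one model, and leaving out each library. Protein-coding transcripts only was chosen after seeing the data. Residuals of samples with the same replicate number had a mean correlation of 0.00745 over all 30 libraries (range -0.113 to 0.135), against -0.00336 for other numbers. In SI FB all 9 such pairs were positive (0.000149 to 0.068; mean 0.0351 against -0.0175), as were all 3 in pericytes (0.0101 to 0.03; mean 0.0185 against -0.00916). The main tests do not use the numbers. The study describes its SI and colonic subsets as sharing mice, but which library came from which mouse or experiment is not stated. The tests treat libraries as independent. Genes are named if they are members, in the 6 pathway lists, in the marker lists, or among the 3 nearest genes of a member, and *Mb21d1* was not matched. The members and lists were chosen with earlier results of these data known. The scripts were tested on simulated data, where edgeR kept false calls low and DESeq2 called more unchanged genes than its threshold allows in fits of 6 or 12 libraries.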

Additional observations from a re-analysis of the deposited data

Results flagged for a closer look

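No result for the 10 genes met a rule for flagging. In the pathway lists, 2 genes were flagged because the tissue effect differed between FB subsets by a test of the difference itself. They were 2 of 69 tested (2.9%, beside 1.28% of all genes), with a median of 0.06 beside 0. Leaving out 1 library gave 1 to 4 calls, and the other settings gave 0 to 5. For *Vcam1* the interaction was 2.45 on the log2 scale (SE 0.42, edgeR adjusted p = 0.00547): SI Fgfr2+ FB had 673, 502 and 347 CPM against 175, 247 and 280 CPM in colon, while SI PDGFRα hi FB had 25.4, 22.1 and 20.5 CPM against 50.6, 49.9 and 71.2 CPM. For *Tlr12* it was 12.19 (SE 2.38, edgeR adjusted p = 0.0192), a fitted value with no bound, since SI PDGFRα hi FB had 0 counts. SI Fgfr2+ FB had 16.7, 32.6 and 12.1 CPM of *Tlr12*, colonic Fgfr2+ FB had 0, 0.0979 and 0.759 CPM, and colonic PDGFRα hi FB had 0.98, 0 and 1.63 CPM. The *Vcam1* interaction was called in all 12 leave-out fits, and it was lost only with all 30 libraries in one model (2.39, edgeR adjusted p = 0.502). The *Tlr12* interaction was lost in that model (edgeR adjusted p = 0.0713) and in 4 of 12 leave-out fits: without replicate 2 of colonic Fgfr2+ FB (0.0643), replicate 3 of colonic PDGFRα hi FB (0.0576) and replicates 1 (0.0509) and 2 (0.0644) of SI PDGFRα hi FB.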

How the results depend on the processing

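*Tlr2* and *Tlr5* were called lower in mural cells under all alternatives and in all 30 leave-one-out fits (adjusted p 2.97e-05 to 0.0211 and 5.09e-06 to 0.000103), and *Tlr5* differed across populations in all of them. No called difference reversed. Of the values for the 10 genes, 2116 kept their sign and their side of the threshold, 86 that were not called changed sign or rounded to 0, 18 became called and 51 lost the call. Of those for called pathway genes, 1725 kept the call, 189 lost it and none reversed. Members called across populations were 2, and 4 without a filter, 1 from length-scaled TPM counts, 1 with the replicate block, 1 on protein-coding transcripts, 5 by DESeq2 and 1 to 4 leave-one-out, and *Tlr3* lost its call in the first 4 of these (adjusted p = 0.097, 0.606, 0.05 and 0.0556). Between mural cells and FB leave-one-out gave 2 to 4, and *Cd14* lost its call with the block (adjusted p = 0.0524). Between Fgfr2+ FB and PDGFRα hi FB 1 became 0 from length-scaled TPM counts, 0 with the replicate block, 0 on protein-coding transcripts, 0 with all 30 libraries in one model, 2 without a fold threshold and 0 to 1 leave-one-out. For *Nod1* in colonic CD81+ FB 1 became 0 with the replicate block, 0 on protein-coding transcripts, 0 with all 30 libraries and 0 to 1 leave-one-out. In pericytes 0 became 1 with all 30 libraries (*Tlr3*, adjusted p = 0.0179), in SI CD34+ FB leave-one-out gave 0 to 1 (*Nod1*), and in colonic CD90+ FB DESeq2 gave 1 (*Tlr5*). For these changes the cause was not tested, except that no fold threshold admits smaller folds by construction. *Tlr1* could not be tested on protein-coding transcripts, nor *Cd14* under the stricter filter or in 2 leave-one-out fits against mural cells, for lack of counts.

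The number of all genes called moved more than 1.5-fold in some settings, and the percentages in the report move with it. Without a fold threshold 4011 genes were called between mural cells and FB (main 2338). DESeq2 called 518 for tissue in PDGFRα hi FB (main 276), 1081 in Fgfr2+ FB (485), 563 for the interaction (201), 354 in pericytes (0), 1250 for SI pericytes against SMC (390) and 121 in CD90+ FB (43). With all 30 libraries in one model these were 166, 255, 116, 998, 1777 and 14. Without a filter the last 4 were 339, 18, 636 and 75, the stricter filter gave 3 and 640 for the pericyte comparisons, protein-coding transcripts 3 in pericytes, and length-scaled TPM counts 25 in CD90+ FB. Leave-one-out gave 183 (tissue, PDGFRα hi FB), 274 to 296 (tissue, Fgfr2+ FB), 1 (pericytes), 183 to 241 (SI pericytes against SMC), 347 to 391 (SI CD34+ FB) and 18 to 73 (CD90+ FB). On simulated counts DESeq2 called too many unchanged genes in fits of 6 or 12 libraries, and the cause of its larger numbers here was not tested.

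Depth limits *Cd14*, *Tlr5* in mural cells and coding *Tlr1*, where a level of 0 counts is a bound and not an absence. The study describes SI and colonic subsets as sharing mice, while the tests treat the 30 libraries as independent, and the block removed the calls of *Tlr3* across populations, *Cd14* in mural cells, *Tlr5* between the FB subsets (adjusted p = 0.0822) and *Nod1* (0.0683). With 3 libraries per population, single libraries moved several calls, and replicate correlation fell to 0.722 in SI pericytes. RNA was measured and not protein or signaling, so presence of a message does not show a working receptor. Reads shared between *Tlr1*, *Tlr6* and other genes cannot be assigned from these files.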

Other observations

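Marker lists of cell types were summed in each population as a check on the gates. Smooth muscle genes had means of 23500 CPM in SMC, 10500 CPM in colonic pericytes, 3430 CPM in SI pericytes and 182 to 2550 CPM in FB. Pericyte genes had 41700 CPM in colonic pericytes, 43300 CPM in SI pericytes, 5520 CPM in SMC and 364 to 4080 CPM in FB. FB genes had 7990 CPM in SMC, 1800 CPM in colonic pericytes, 3110 CPM in SI pericytes and 14200 to 57100 CPM in FB. Lymphocyte genes were at 75.3 ± 104 CPM in SI pericytes, where 1 library had 195 CPM, 191 of them from *Cd79a* alone with no *Cd79b*, and at means of 4.02 to 10.4 CPM elsewhere. Endothelial genes had means of 360 CPM in colonic CD81+ FB, 239 CPM in SI pericytes and 72.2 to 118 CPM in the other populations. In colonic CD81+ FB this was mostly *Tek* (334, 323 and 271 CPM), and *Pecam1* (41.1 CPM) was within the means of the other populations. On coding transcripts alone the endothelial sums were 270 to 339 CPM in colonic CD81+ FB and 74.1 to 210 CPM in SI pericytes but 0.889 to 16.0 CPM in SMC, and 5.54% of *Pecam1* counts were on coding transcripts. Epithelial genes had means of 3.33 to 15.7 CPM, genes of glia and neurons 3.02 to 14.9 CPM, and mesothelial genes 0.098 to 2.47 CPM. Epithelial sums were highest in replicate 2 of colonic pericytes (33.3 CPM, *Vil1* 16.8) and replicate 2 of SI pericytes (37.2 CPM, *Vil1* 27.6). The remaining pericyte libraries had 1.56 to 6.06 CPM. *Kit* and *Ano1*, used for interstitial cells of Cajal, summed to 712 CPM in colonic and 757 CPM in SI pericytes, nearly all *Ano1*: *Kit* had no counts in 3 of these 6 libraries and at most 8.24 CPM. On coding transcripts, *Ptprc* had 28 counts in all 30 libraries, *Epcam* 6, *Sox10* 15, *Msln* 9 and *Pecam1* 835.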
